A study of Mus musculus with 36 samples.

Results

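Glucocorticoids such as corticosterone, the main one of the mouse, act through the glucocorticoid receptor, a nuclear receptor that is held by chaperones in the cytoplasm, binds the hormone, moves to the nucleus and acts on genes that carry glucocorticoid response elements. In liver the receptor is known for inducing enzymes of gluconeogenesis and amino acid breakdown, and in many tissues it induces a common set of genes, some of which damp the hormone's own signal. The genes described here are the receptor gene Nr3c1 and 7 genes known as its targets, which are Fkbp5, Tsc22d3, Zbtb16, Sgk1, Klf9, Mt1 and Mt2. They were taken by name, with earlier results of these data known. All 8 were found among the 22558 genes of each of 2 tables of FPKM, a count of sequenced fragments scaled by transcript length and by library size.

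The libraries came from C57BL/6 mice given DMOG, roxadustat or PBS, with 6 libraries per treatment under each of 2 tissue labels, 36 in all. DMOG (dimethyloxalylglycine) is an analogue of 2-oxoglutarate that inhibits the prolyl hydroxylases of the hypoxia-inducible factors (HIF) along with other 2-oxoglutarate-dependent enzymes, and roxadustat was developed as an inhibitor of the HIF prolyl hydroxylases. PBS is the saline control. The labels give no dose, time, age or sex and do not say that replicates are separate animals, so the p-values below measure the spread between libraries, which may be in part technical. The question of the design is how each compound changed expression in liver and in retina.

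The tissue labels and the transcriptomes were crossed. In the 18 libraries labelled retina, Apoa1, an apolipoprotein gene of hepatocytes, lay between 6300 and 12800 FPKM, and Sag, the rod arrestin gene, reached 0.473 FPKM at most. In the 18 libraries labelled liver, Sag lay between 2170 and 3680 FPKM and Apoa1 reached 0.516 FPKM at most. All 10 rod and cone markers together summed to 2.44 to 3.68 FPKM with DMOG, 2.76 to 3.85 FPKM with roxadustat and 2.59 to 3.85 FPKM with PBS in the first set. The first set is called liver RNA and the second retina RNA below, whatever the label. Alb, the albumin gene, was listed at 0 in all liver RNA libraries while Afp, the alpha-fetoprotein gene, had a median of 6970 FPKM there. The 18 libraries summed to 433021 to 540324 FPKM in liver RNA and to 542785 to 617853 FPKM in retina RNA, and the number of reads behind the values is not known. Xist and Y-linked genes gave 4 female and 2 male libraries for DMOG, 1 and 5 for roxadustat, and 3 and 3 for PBS in liver RNA, and 2 and 4, 3 and 3, and 3 and 3 in retina RNA. A single liver RNA library, DMOG replicate 5, lay with PBS. Its Egln3, a HIF target, was at 8.23 FPKM, against 46.4 to 72.5 FPKM in the other 5 DMOG libraries and 5.19 to 8.29 FPKM with PBS. For 7 of the 8 genes described here its value lay within the PBS range, and for 1 of them, Sgk1, within the range of the other DMOG libraries. The liver RNA results of the 8 genes and the counts of listed genes are therefore given with and without it. Values of r across the liver RNA libraries are given only with it. This library was singled out after its values were seen, those of the 8 genes among them. Leaving it out thus favours a DMOG response, and the p-values and counts without it are given as a description. In bulk RNA a smaller share of the cells that express a gene and less of its RNA per cell cannot be told apart.

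RefSeq promoter windows were matched for 6 of the 8 genes, 13 windows in all, and not for Zbtb16 and Nr3c1. Each window is the 250 bases before an annotated start in the mouse build GRCm38.p6. The 4 printed here are those of the neighbouring metallothionein genes, which moved together, that of Fkbp5, the member with the largest change relative to its error, and the window of Sgk1 that holds a palindromic glucocorticoid response element. They are given 5′ to 3′ on the strand of the gene. Capitals mark the metal response element core in Mt1 (chr8:94178839-94179088, plus strand) and Mt2 (chr8:94172368-94172617, plus strand), the hypoxia response element core in Fkbp5 (chr17:28486150-28486399, minus strand) and the glucocorticoid response element in Sgk1 (chr10:21993640-21993889, plus strand).
Mt1: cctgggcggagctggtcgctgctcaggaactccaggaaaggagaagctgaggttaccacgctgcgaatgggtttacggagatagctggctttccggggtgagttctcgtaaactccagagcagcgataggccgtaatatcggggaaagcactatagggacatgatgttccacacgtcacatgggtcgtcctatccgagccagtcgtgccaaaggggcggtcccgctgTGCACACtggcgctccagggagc
Mt2: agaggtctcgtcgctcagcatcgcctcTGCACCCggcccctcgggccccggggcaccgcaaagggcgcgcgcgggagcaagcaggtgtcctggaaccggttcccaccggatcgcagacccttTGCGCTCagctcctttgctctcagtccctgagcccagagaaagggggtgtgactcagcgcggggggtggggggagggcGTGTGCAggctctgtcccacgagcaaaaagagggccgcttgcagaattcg
Fkbp5: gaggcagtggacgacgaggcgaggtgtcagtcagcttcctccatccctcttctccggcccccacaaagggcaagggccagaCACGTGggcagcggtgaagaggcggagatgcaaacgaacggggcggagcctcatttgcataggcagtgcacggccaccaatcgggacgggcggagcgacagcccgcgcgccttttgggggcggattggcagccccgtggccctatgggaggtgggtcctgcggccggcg
Sgk1: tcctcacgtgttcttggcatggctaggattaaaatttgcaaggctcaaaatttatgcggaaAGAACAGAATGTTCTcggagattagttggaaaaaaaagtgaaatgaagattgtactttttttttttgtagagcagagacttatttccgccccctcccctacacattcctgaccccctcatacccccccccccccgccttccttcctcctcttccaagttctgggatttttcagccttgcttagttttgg

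The metal response element core is the motif bound by the zinc-sensing factor MTF-1 and was searched on both strands as TGCACNC or TGCGCNC. The Mt2 window held it 3 times, starting 223, 128 and 50 bases before the start, and the Mt1 window held it at 1 place, 23 bases before the start. Of 32851 RefSeq windows of this length 21.4% held it. The glucocorticoid response element was searched as the strict palindrome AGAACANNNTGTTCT, which was found in 3 of the 32851 windows (0.00913%), and among the windows of these genes only in the printed one of Sgk1, 189 bases before the start. A single arm of it, AGAACA on either strand, is contained in the palindrome, was in 16.1% of all windows and was found in windows of Sgk1 and Tsc22d3. The hypoxia response element core, ACGTG or GCGTG on either strand, was in 38.6% of all windows and was found in windows of Fkbp5, Sgk1, Klf9, Mt1 and Mt2. In Fkbp5 it read CACGTG, which matches on both strands. A match describes letters in a window and not binding. Sequence outside these windows, enhancers and bases after the annotated start included, was not searched, so the counts are not those of whole promoters.

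With PBS, Mt1 and Mt2, which encode small cysteine-rich proteins that bind zinc and copper, were the most abundant of the 8 in liver RNA, with medians of 506 and 202 FPKM. Fkbp5, Nr3c1, Tsc22d3 and Sgk1 followed with medians of 28.1, 24.5, 21.9 and 21.2 FPKM and overlapping ranges, then Klf9 with 7.05 FPKM and Zbtb16 with 0.804 FPKM. In retina RNA with PBS the order differed. Klf9 led with a median of 65.8 FPKM and lay above all others in range, followed by Mt1 (39.3 FPKM) and Tsc22d3 (31.9 FPKM), whose ranges overlapped. Nr3c1 had 24.2 FPKM, Sgk1 16.1 FPKM, Fkbp5 9.86 FPKM, Mt2 6.29 FPKM and Zbtb16 0.511 FPKM, and from Nr3c1 down to Mt2 the ranges of neighbours overlapped. The 2 tables were made separately, so a level in one is set beside the other without a test.

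DMOG changed 6 of the 8 genes in liver RNA, in both directions. The receptor gene Nr3c1, the transcription factor gene Zbtb16 and the metallothionein gene Mt1 rose, and the targets Fkbp5, Tsc22d3 and Klf9 fell. Changes were tested with limma on log2(FPKM + 0.5) over the 12657 genes that averaged 0.5 FPKM or more, and a gene was called at a Benjamini-Hochberg adjusted p under 0.05. All 8 passed that filter. Of all genes tested 20% were called, 8.26% higher and 11.7% lower, so a large part of the liver transcriptome moved and the share of these 8 is read against that. No member had DMOG and PBS groups that did not overlap, as 2.77% of all genes did. Without DMOG replicate 5, 7 of the 8 were called, 4 higher and 3 lower, against 35.4% of all genes. With each library scaled to an equal total the share of higher genes among all calls was 17.8%, against 41.4% as deposited, and none of the 6 called members changed direction. Roxadustat left all 8 on the uncalled side in liver RNA, where 4.19% of genes were called by limma, 2.16% higher and 2.02% lower. At an unadjusted p under 0.05, and by the unadjusted exact permutation test, there were 2 of the 8. The shares of all genes given here are for adjusted calls. No share at an unadjusted p is given, so this count cannot be read against all genes. The summed level of hepatocyte markers was 22200 to 37100 FPKM with DMOG, 23000 to 30500 FPKM with roxadustat and 26300 to 32800 FPKM with PBS, and that of erythroid markers was 1290 to 3410, 1110 to 2410 and 926 to 1960 FPKM in the same order. Macrophage markers summed to 237 to 495, 215 to 442 and 253 to 452 FPKM and lymphocyte markers to 18.1 to 44.6, 18.1 to 41.2 and 21.1 to 34.7 FPKM. The part of any of these in the values of the 8 genes was not tested.

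**Figure D1:**
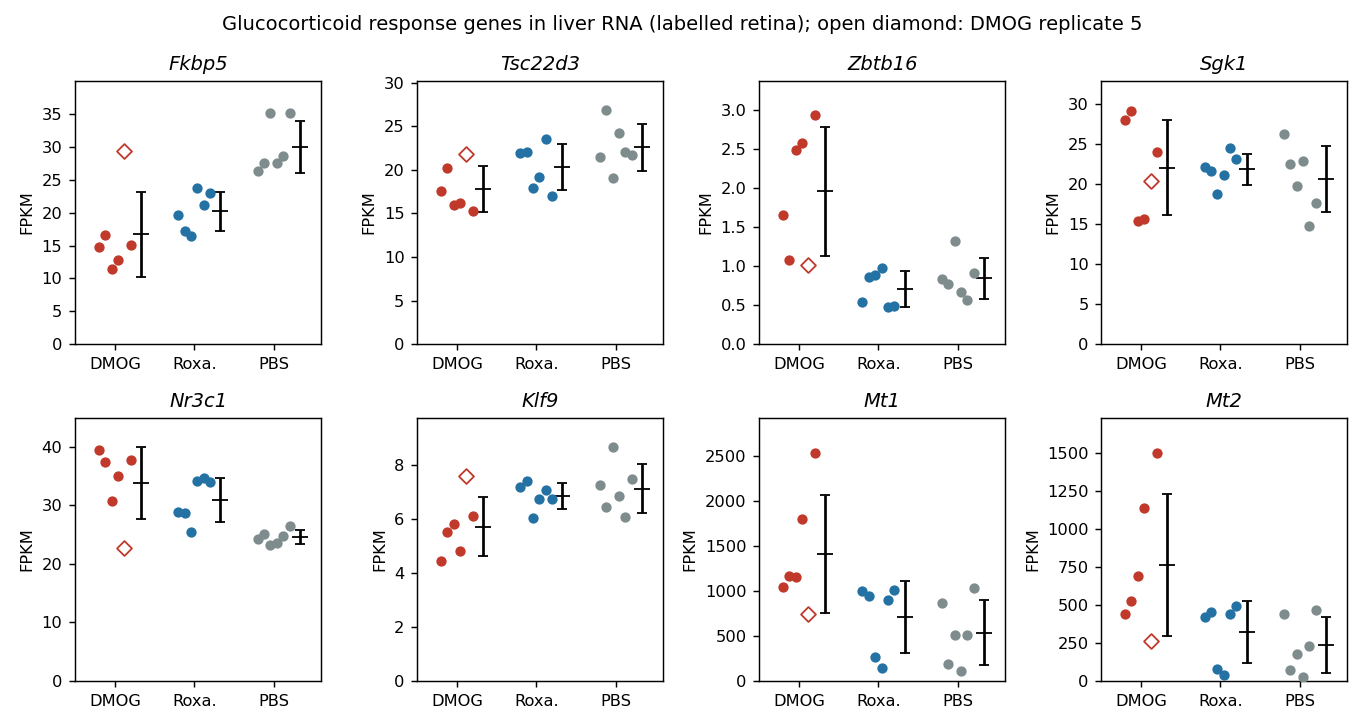
Levels of the 8 genes in liver RNA (libraries labelled retina), in FPKM on the vertical axis, with DMOG, roxadustat and PBS from left to right. Points are single libraries, the open diamond is DMOG replicate 5, and the bar beside each group is its mean ± SD (n = 6). Fkbp5 lay between 11.4 and 16.6 FPKM in 5 DMOG libraries, at 29.3 FPKM in the open diamond, and between 26.3 and 35.1 FPKM with PBS.

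Nr3c1 encodes the glucocorticoid receptor itself. Its lowest, median and highest levels in liver RNA were 22.7, 36.2 and 39.4 FPKM with DMOG, 25.5, 31.4 and 34.7 FPKM with roxadustat, and 23.3, 24.5 and 26.4 FPKM with PBS. Apart from DMOG replicate 5, which held the lowest value of all 18, every DMOG library was above every PBS library, and 5 of 6 were above the PBS mean with that library included. The log2 fold change for DMOG was 0.43 ± 0.11 (SE, limma adjusted p = 0.0117), a fold of 1.35, and 0.54 ± 0.08 without replicate 5 (adjusted p = 8.51e-05). For roxadustat all 6 libraries were above the PBS mean and the log2 fold change was 0.32 ± 0.11, which was not called (adjusted p = 0.119, two-sided exact permutation p = 0.00433, unadjusted). Without DMOG replicate 5, which enters the shared estimate of the spread, the roxadustat value of 0.32 was called (adjusted p = 0.0182). Across the 18 liver RNA libraries the closest gene in pattern was Arl5a, which encodes an ARF-like small GTPase (Pearson r = 0.942), and the next was B4galt1, a galactosyltransferase gene (r = 0.939). These libraries share depth and treatment, so the r is a description.

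Fkbp5 encodes FKBP51, a co-chaperone that lowers the receptor's affinity for hormone and is one of its most responsive targets. It reached 11.4, 14.9 and 29.3 FPKM (lowest, median, highest) with DMOG, 16.4, 20.4 and 23.7 FPKM with roxadustat, and 26.3, 28.1 and 35.1 FPKM with PBS. Every roxadustat library was below every PBS library, and so was every DMOG library other than replicate 5. The DMOG log2 fold change was -0.89 ± 0.17 (adjusted p = 0.0018), a fold of 0.539, and -1.06 ± 0.12 without replicate 5 (adjusted p = 1.99e-06). The roxadustat log2 fold change was -0.57 ± 0.17, a fold of 0.676, and missed the threshold (adjusted p = 0.0644). Its exact permutation p of 0.00216 is the smallest that 6 libraries against 6 can give, and Fkbp5 was the single member whose roxadustat and PBS groups did not overlap, as for 5.48% of all genes tested. Without DMOG replicate 5 roxadustat's Fkbp5 change was called at the same size, -0.57 ± 0.11 (adjusted p = 0.00295), where 8.74% of all genes were called, 4.12% higher and 4.63% lower, and without DMOG replicate 3 it had an adjusted p of 0.0498. Within sex, Fkbp5 was at 11.4 to 16.6 FPKM in 4 female DMOG libraries and at 26.3 to 35.1 FPKM in 3 female PBS libraries. In the 2 male DMOG libraries it was at 14.7 FPKM and, in replicate 5, at 29.3 FPKM, inside the male PBS range. The single female roxadustat library had 19.6 FPKM, and the 5 male ones had 16.4 to 23.7 FPKM, against 27.6 to 35.1 FPKM in 3 male PBS libraries. Fmo2, a flavin monooxygenase gene, and Pard3, a cell polarity gene, were closest to Fkbp5 in pattern (r = 0.972 each, 18 libraries).

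Tsc22d3 encodes GILZ, a leucine zipper protein that carries part of the anti-inflammatory action of glucocorticoids. With DMOG it spanned 15.3, 16.9 and 21.8 FPKM, with roxadustat 17, 20.6 and 23.5 FPKM, and with PBS 19, 21.9 and 26.9 FPKM (lowest, median, highest). The groups overlapped, with all 6 DMOG libraries below the PBS mean. DMOG lowered it by a small margin, with a log2 fold change of -0.33 ± 0.10 (adjusted p = 0.0287) and -0.39 ± 0.10 without replicate 5 (adjusted p = 0.00538). The call was lost when any of DMOG replicates 1, 3, 4 and 6 or PBS replicates 2 and 4 was left out, with adjusted p between 0.0528 and 0.0706. For roxadustat the log2 fold change was -0.15 ± 0.10 (adjusted p = 0.447).

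Klf9 encodes a Krüppel-like zinc finger repressor that glucocorticoids induce in many cell types. Its levels were 4.45, 5.68 and 7.6 FPKM with DMOG, 6.02, 6.9 and 7.39 FPKM with roxadustat, and 6.07, 7.05 and 8.65 FPKM with PBS. Among the DMOG libraries 5 of 6 were below the PBS mean and replicate 5 was above it. The DMOG log2 fold change of -0.30 ± 0.10 was near the threshold (adjusted p = 0.0447) and became -0.38 ± 0.09 without replicate 5 (adjusted p = 0.00314). With the replicate numbers as a block the Klf9 call was lost (adjusted p = 0.0671). Of 29 alternatives 11 kept the call, and the adjusted p ranged from 0.00314 to 0.11. Leaving out any other DMOG library, any of PBS replicates 1, 3, 4 and 6 or any of roxadustat replicates 1, 2, 4, 5 and 6 ended it (log2 fold changes of -0.32 to -0.24). For roxadustat the log2 fold change was -0.05 ± 0.10 (adjusted p = 0.848).

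Zbtb16 encodes PLZF, a zinc finger transcription factor that is strongly induced by glucocorticoids in human and mouse cells. Its levels in liver RNA were low, at 1.01, 2.08 and 2.95 FPKM with DMOG, 0.474, 0.703 and 0.977 FPKM with roxadustat, and 0.561, 0.804 and 1.33 FPKM with PBS. All 6 DMOG libraries were above the PBS mean, with 1 PBS library reaching into their range, and the roxadustat and PBS libraries overlapped. The DMOG log2 fold change was 0.82 ± 0.20 (adjusted p = 0.00804) and 0.95 ± 0.19 without replicate 5 (adjusted p = 0.000853). The ratio of the group means was 2.32, larger than the fold of 1.77 on the log2(FPKM + 0.5) scale, which understates changes of genes near the added 0.5. The roxadustat log2 fold change was -0.16 ± 0.20 (adjusted p = 0.713), with a 95% interval from -0.57 to 0.26. In the 4 female DMOG libraries Zbtb16 was at 1.08 to 2.95 FPKM and in the 2 male ones at 1.01 and 1.66 FPKM, against 0.769 to 1.33 FPKM in 3 female and 0.561 to 0.908 FPKM in 3 male PBS libraries.

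Sgk1 encodes a serum- and glucocorticoid-regulated kinase that controls ion channels and transporters. It was at 15.4, 22.3 and 29.2 FPKM with DMOG, 18.8, 21.9 and 24.6 FPKM with roxadustat, and 14.8, 21.2 and 26.4 FPKM with PBS. The 3 groups overlapped over most of their range. The log2 fold change was 0.08 ± 0.16 for DMOG (95% interval -0.25 to 0.41, adjusted p = 0.759) and 0.10 ± 0.16 for roxadustat (interval -0.23 to 0.43, adjusted p = 0.776). With DMOG replicate 5 left out the DMOG value was 0.09 ± 0.17.

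Mt1 and Mt2 are induced by zinc and other metals through MTF-1 and, in mouse liver, by glucocorticoids. Mt1 was at 741, 1160 and 2540 FPKM with DMOG, 146, 920 and 1010 FPKM with roxadustat, and 113, 506 and 1030 FPKM with PBS. Mt2 was at 264, 608 and 1500 FPKM with DMOG, 36.9, 429 and 494 FPKM with roxadustat, and 25, 202 and 469 FPKM with PBS. Both spread widely within each group, the roxadustat libraries fell into 4 near the top of the PBS range and 2 low ones, and all 6 DMOG libraries were above the PBS mean for both genes. Mt1 rose with DMOG by a log2 fold change of 1.65 ± 0.56 (adjusted p = 0.0447), and Mt2, at 2.04 ± 0.75, was not called (adjusted p = 0.0609). With DMOG replicate 5 left out, both passed, with 1.81 ± 0.58 (adjusted p = 0.0225) for Mt1 and 2.30 ± 0.77 (adjusted p = 0.0271) for Mt2. Mt1 lost its call without any of DMOG replicates 1, 2, 3, 4 and 6 or PBS replicates 2, 3, 4 and 5, where its log2 fold change was 1.28 to 1.71. Mt2 gained a call with the replicate block (adjusted p = 0.043) and without roxadustat replicate 4 (adjusted p = 0.0387), PBS replicate 1 (0.0431) or PBS replicate 6 (0.0459). Within sex, Mt1 was at 1150 to 2540 FPKM in 4 female and 741 and 1040 FPKM in 2 male DMOG libraries, against 189 to 864 FPKM in 3 female and 113 to 1030 FPKM in 3 male PBS libraries. With a term for sex its log2 fold change was 1.55 (adjusted p = 0.063), and that of Klf9 was -0.31 (adjusted p = 0.0513). For roxadustat the log2 fold changes were 0.46 ± 0.56 for Mt1 (interval -0.71 to 1.64) and 0.51 ± 0.75 for Mt2 (interval -1.05 to 2.08), so a change as large as that of DMOG was inside the Mt2 interval and just outside the Mt1 one.

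The metallothionein pair moved together from library to library. Over the 18 liver RNA libraries their log2 levels had r = 0.994, each being the other's closest gene among all tested, and r = 0.99 after each group's mean was removed. The next closest gene to either, Nos1ap, an adaptor of nitric oxide synthase, was at r = 0.785 with Mt1 and 0.782 with Mt2. The Mt2 level was below the Mt1 level in every library, and the ratio Mt2 over Mt1 in liver RNA had a median of 0.522 (0.356 to 0.634) with DMOG, 0.45 (0.252 to 0.49) with roxadustat and 0.407 (0.222 to 0.51) with PBS. In retina RNA the ratio was lower, at 0.205 (0.156 to 0.239), 0.205 (0.158 to 0.229) and 0.182 (0.121 to 0.2) in the same order, and the r of the pair was 0.77. Mt1 and Mt2 are close paralogs, and how the counting divided reads that match both is not given in the sources used here.

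**Figure D2:**
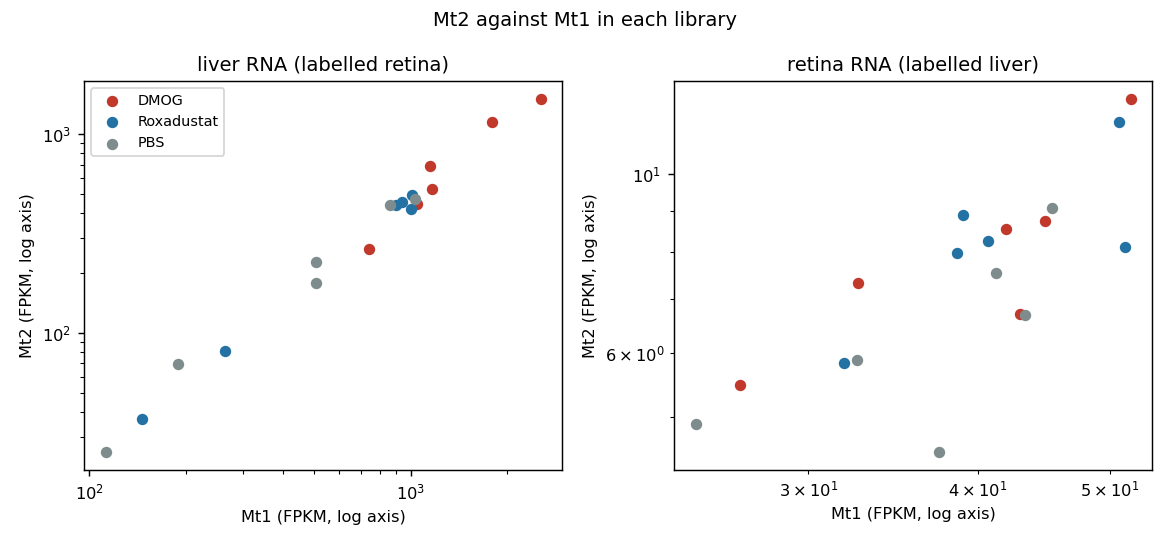
Mt2 against Mt1 in every library, both in FPKM on log axes, with liver RNA on the left and retina RNA on the right; colours give the treatment. In liver RNA the 18 points lie close to a line (r = 0.994) and 5 of the 6 DMOG points are above every roxadustat and PBS point in Mt1, with DMOG replicate 5, at 741 FPKM, among the points of the other treatments, while in retina RNA the treatments mix.

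Among the other members, deviations from the group means across the 18 liver RNA libraries were most alike for Fkbp5 and Klf9 (r = 0.63) and most opposed for Tsc22d3 and Zbtb16 (r = -0.69). The values come from the same libraries and share their depth, and no test was made. DMOG replicate 5, the highest DMOG library in Fkbp5 (29.3 FPKM) and in Klf9 (7.6 FPKM), is among them. No r was taken without it, so these r may rest in part on that library.

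Roxadustat and DMOG differed in liver RNA for 1 of the 8 genes, Zbtb16, which was lower with roxadustat, at 0.707 ± 0.227 FPKM with roxadustat and 1.96 ± 0.824 FPKM with DMOG (SD, n = 6 each). The groups did not overlap, the log2 fold change of roxadustat over DMOG was -0.98 ± 0.20 (adjusted p = 0.0168) and, without DMOG replicate 5, -1.10 ± 0.19 (adjusted p = 0.00071). In this comparison 2.99% of all genes were called, 1.14% of all genes were lower with roxadustat, and 1.13% had groups that did not overlap. Sex is unevenly split here, and with a term for sex the Zbtb16 difference was -0.84 (adjusted p = 0.0892). Among males the 5 roxadustat libraries had 0.474 to 0.977 FPKM of Zbtb16 and the 2 DMOG ones 1.01 and 1.66 FPKM, and the single female roxadustat library had 0.547 FPKM, against 1.08 to 2.95 FPKM in 4 female DMOG libraries. When DMOG replicate 5 was left out, 3 genes were called, against 16.2% of all genes (9.04% higher and 7.14% lower), since Fkbp5 (0.50 ± 0.12, adjusted p = 0.00664) and Klf9 (0.34 ± 0.09, adjusted p = 0.0159) were then higher with roxadustat than with DMOG. With all libraries these were 0.33 ± 0.17 (adjusted p = 0.325) for Fkbp5 and 0.26 ± 0.10 (adjusted p = 0.185) for Klf9. For Mt1 the roxadustat-over-DMOG value was -1.19 ± 0.56 (interval -2.37 to -0.02, adjusted p = 0.272) and for Mt2 -1.53 ± 0.75 (interval -3.09 to 0.04, adjusted p = 0.293), and the 6 roxadustat libraries were below the DMOG mean for both. The remaining intervals were -0.03 to 0.40 for Tsc22d3, -0.35 to 0.12 for Nr3c1 and -0.31 to 0.35 for Sgk1. Doses and times are not in the labels, so these values set 2 treatments side by side as given.

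In retina RNA none of the 8 genes was called in any of the 3 comparisons with limma, where 1.07% of 13779 genes were called for DMOG, 2.34% for roxadustat and 1.31% for roxadustat against DMOG. At an unadjusted p under 0.05 there were 0, 3 and 2 of the 8, and by the unadjusted exact permutation test 0, 2 and 2. Those shares of all genes are for adjusted calls, so the unadjusted counts cannot be read against them. No member had groups that did not overlap, which 1.16% of all genes had for DMOG, 1.94% for roxadustat and 1.95% for roxadustat against DMOG. By direction, 0.37% of all genes were higher and 0.697% lower with DMOG, 1.69% higher and 0.653% lower with roxadustat, and 0.98% higher and 0.334% lower with roxadustat than with DMOG.

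Sgk1 had the largest fold change of the 8 in retina RNA with roxadustat, without a call. It was at 9.73, 13.1 and 17.7 FPKM with DMOG, 16.3, 22 and 26.6 FPKM with roxadustat, and 8.4, 16.1 and 20.7 FPKM with PBS. All 6 roxadustat libraries were above the PBS mean, and the lowest of them lay inside the PBS range. The roxadustat log2 fold change was 0.53 ± 0.19 (95% interval 0.14 to 0.92, adjusted p = 0.141, exact permutation p = 0.0368), and against DMOG it was 0.65 ± 0.19 (interval 0.26 to 1.05, adjusted p = 0.118, exact permutation p = 0.00433). The second was called without PBS replicate 4 (adjusted p = 0.0406) or with the 2 groups fitted alone (adjusted p = 0.0176). The DMOG log2 fold change was -0.12 ± 0.19 (adjusted p = 0.796). Its closest genes over the 18 retina RNA libraries were Penk, the proenkephalin gene (r = 0.946), and Ociad2, a mitochondrial protein gene (r = 0.923).

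Klf9 was at 59.2, 61.4 and 75.4 FPKM with DMOG, 68.1, 71 and 76 FPKM with roxadustat, and 57, 65.8 and 71.2 FPKM with PBS in retina RNA. The roxadustat libraries were all above the PBS mean, by a log2 fold change of 0.13 ± 0.06 (adjusted p = 0.272, exact permutation p = 0.0346). Mt2 had a roxadustat log2 fold change of 0.38 ± 0.18 (adjusted p = 0.286) and a DMOG one of 0.32 ± 0.18 (adjusted p = 0.437), and Mt1 0.17 ± 0.16 and 0.09 ± 0.16 in that order. For Nr3c1 the DMOG value was 0.00 ± 0.07 (interval -0.14 to 0.15) and the roxadustat value 0.08 ± 0.07 (interval -0.07 to 0.22). For Fkbp5 they were 0.05 ± 0.05 (interval -0.07 to 0.16) and 0.06 ± 0.05 (interval -0.05 to 0.18). For Tsc22d3 they were -0.04 ± 0.07 and -0.09 ± 0.07, and for Zbtb16, at 0.434 to 0.646 FPKM with either compound, -0.01 ± 0.07 and 0.11 ± 0.07. Lens marker genes moved with the treatments in retina RNA, all 6 of them above 1 FPKM in each group, with a summed level of 12.4 to 990 FPKM with DMOG, 220 to 13500 FPKM with roxadustat and 2370 to 26700 FPKM with PBS. Erythroid markers summed to 76.8 to 110 FPKM with DMOG, 85.7 to 113 FPKM with roxadustat and 52.3 to 63.8 FPKM with PBS. Markers of the retinal pigment epithelium summed to 47.6 to 169, 126 to 218 and 63.3 to 237 FPKM in the same order. Those of Mueller glia summed to 889 to 1250, 892 to 1080 and 910 to 1530 FPKM. The part of any of these lists in the values of the 8 genes was not tested. A relative depth read from the steps between low values was 0.943 to 1.267 with DMOG, 0.79 to 1.203 with roxadustat and 0.825 to 0.91 with PBS in retina RNA, and its part was not tested either.

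**Figure D3:**
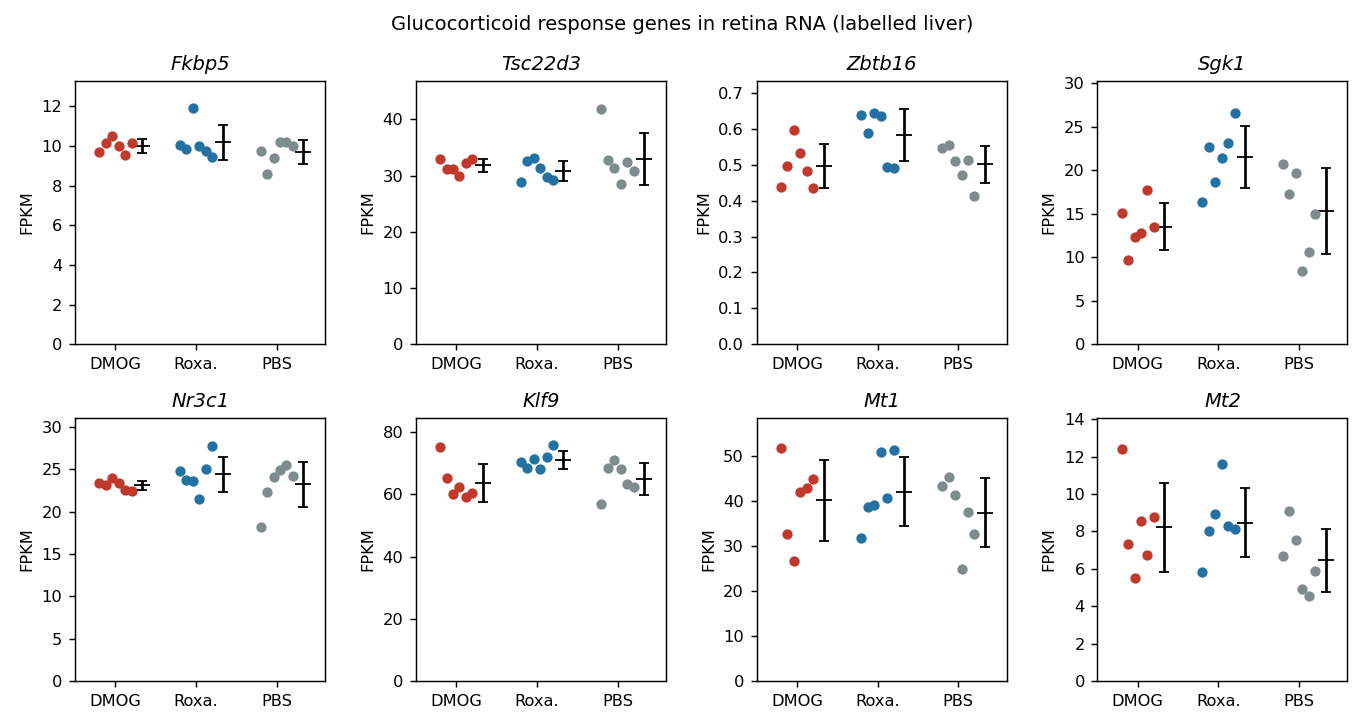
Levels of the 8 genes in retina RNA (libraries labelled liver), in FPKM on the vertical axis, drawn as for liver RNA with DMOG, roxadustat and PBS from left to right, points for libraries and bars for the mean ± SD (n = 6). The groups overlapped for each of the 8 genes, and Sgk1 was at 16.3 to 26.6 FPKM with roxadustat against 8.4 to 20.7 FPKM with PBS.

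The responses were also compared between the tissues, as the liver RNA response minus the retina RNA response in 1 limma fit over all 36 libraries and 11101 genes. For DMOG 3 of the 8 genes were called, against 15.9% of all genes (6.97% higher and 8.91% lower). The difference was -0.94 ± 0.18 for Fkbp5 (adjusted p = 0.000775), 0.83 ± 0.21 for Zbtb16 (adjusted p = 0.00858) and 0.43 ± 0.13 for Nr3c1 (adjusted p = 0.0257). These differences without DMOG replicate 5 of liver RNA were -1.11, 0.95 and 0.54, and the differences of Tsc22d3 (-0.35, adjusted p = 0.026), Klf9 (-0.35, adjusted p = 0.0128) and Mt1 (1.72, adjusted p = 0.032) were called too, which makes 6 of the 8 against 28.8% of all genes in that fit. Mt1 was also called without roxadustat replicate 4 or PBS replicate 1 or 6 of liver RNA, and Tsc22d3 without PBS replicate 1 of retina RNA or with libraries scaled to an equal total. Nr3c1 lost the call without DMOG replicate 1 (0.38, adjusted p = 0.0537) or 6 (0.39, adjusted p = 0.0513) of liver RNA and with each library scaled to an equal total (0.35, adjusted p = 0.065). For roxadustat 0 of 8 were called by limma, against 2.24% of all genes (1.22% higher and 1.03% lower). At an unadjusted p under 0.05, for which no share of all genes is given, there was 1 of the 8. That was Fkbp5, with a difference of -0.63 ± 0.18 (adjusted p = 0.0521), which passed without DMOG replicate 5 (adjusted p = 0.00133) and without DMOG replicate 3 or 4 or roxadustat replicate 4 or 6 of liver RNA (0.0346 to 0.0468). Sgk1 had -0.43 ± 0.25 for roxadustat (adjusted p = 0.419).

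**Figure D4:**
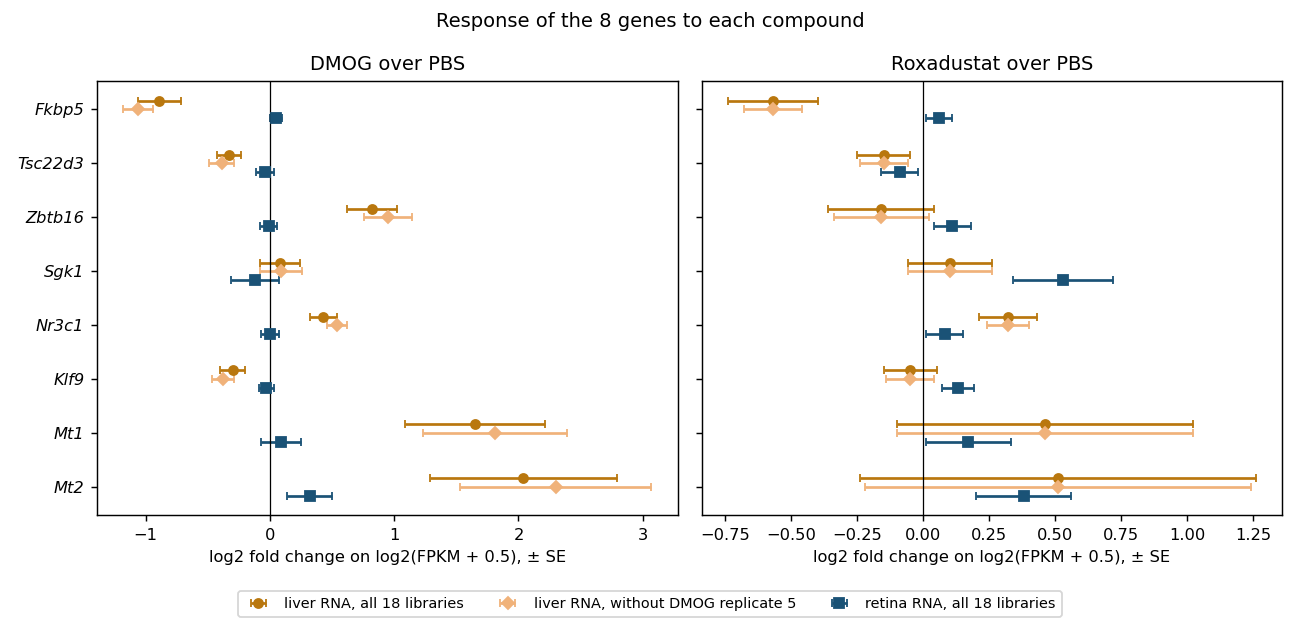
Log2 fold change over PBS, on log2(FPKM + 0.5), of each of the 8 genes with DMOG (left) and roxadustat (right); bars are ± SE. Circles are liver RNA with all libraries, diamonds liver RNA without DMOG replicate 5 and squares retina RNA, and the 2 panels have different horizontal scales. Fkbp5 lies at -0.89 with DMOG and -0.57 with roxadustat in liver RNA and at 0.05 and 0.06 in retina RNA.

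Genes for the chaperones, coactivators, hormone-converting enzymes and transporters around the receptor were described from a list of 19, of which 17 were tested in liver RNA. With DMOG 1 was higher and 6 were lower, against 8.26% and 11.7% of all genes, with a list median log2 fold change of -0.03 against 0.01 over all genes. With DMOG replicate 5 left out, these counts were 2 and 6, against 17.3% and 18.1% of all genes. The genes that could be named from all lists were picked as called with all libraries. Without that library 29 of 29 kept their call and direction for DMOG and 10 of 10 between the compounds. None had a log2 fold change moved by over 1.5 times. For roxadustat 17 of 17 kept their call, but that log2 fold change uses no DMOG library and could not move. Since DMOG replicate 5 lay with PBS, leaving it out favours the DMOG calls, and these counts are not an independent check. Nr3c2, the mineralocorticoid receptor gene, fell to 1.74 ± 0.762 FPKM with DMOG, against 3.43 ± 0.492 FPKM with PBS (log2 fold change -0.85 ± 0.15, adjusted p = 0.0012). With roxadustat Nr3c2 was at 2.09 ± 0.258 FPKM, also lower (-0.60 ± 0.15, adjusted p = 0.0269), and it was the single gene of the list called for that compound, against 2.16% of all genes higher and 2.02% lower. In the fit without DMOG replicate 5, the list had 0 higher and 2 lower for roxadustat, against 4.12% and 4.63% of all genes. Fkbp4 encodes FKBP52, the co-chaperone that opposes FKBP51 on the receptor, and it fell with DMOG to 33.2 ± 13 FPKM, against 55.8 ± 6.7 FPKM with PBS (-0.80 ± 0.16, adjusted p = 0.00235). Abcb1a, which encodes an efflux pump that exports steroids, fell with DMOG (-1.17 ± 0.24, adjusted p = 0.00268). H6pd, which supplies NADPH to the enzyme that regenerates active glucocorticoid, rose with DMOG (0.40 ± 0.10, adjusted p = 0.00793). Abcb1a was also higher with roxadustat than with DMOG (1.05 ± 0.24, adjusted p = 0.0248). It was the 1 call of this list between the compounds with all libraries, against 1.86% of all genes higher and 1.14% lower. Without DMOG replicate 5 the list had 4 higher and 1 lower, against 9.04% and 7.14% of all genes.

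Among glucocorticoid targets listed for many tissues the called genes were higher with both compounds. The list leaves out the targets that are members. Of those Fkbp5, Tsc22d3 and Klf9 were called lower with DMOG, and Zbtb16 and Mt1 higher, so the counts hold for the listed genes only. Of 18 tested, 7 were higher with DMOG and 0 lower, with a median of 0.29, against 8.26% and 11.7% of all genes. With roxadustat 6 were higher and 0 lower, against 2.16% and 2.02% of all genes, with a median of 0.28 against 0 over all genes. With DMOG replicate 5 left out, there were 9 and 0 for DMOG, against 17.3% and 18.1% of all genes. For roxadustat there were 6 and 0, against 4.12% and 4.63% of all genes. Between roxadustat and DMOG limma called 0 of 18 with all libraries, against 2.99% of all genes. Without DMOG replicate 5 there were 0 higher and 3 lower, against 9.04% and 7.14% of all genes. Dusp1, a phosphatase gene that dampens MAP kinases, was at 13.2 ± 4.76 FPKM with DMOG, 9.53 ± 3.03 FPKM with roxadustat and 4.19 ± 0.842 FPKM with PBS, which gives 1.47 ± 0.25 (adjusted p = 0.00111) for DMOG and 1.06 ± 0.25 (adjusted p = 0.0196) for roxadustat. Cdkn1a, the p21 cell cycle inhibitor gene, changed by 1.65 ± 0.28 with DMOG (adjusted p = 0.0012) and 2.07 ± 0.28 with roxadustat (adjusted p = 0.000555). Ddit4, which encodes the mTORC1 inhibitor REDD1 and is known as a HIF target too, changed by 1.37 ± 0.27 (adjusted p = 0.0024) and 1.59 ± 0.27 (adjusted p = 0.00241). Per1, a clock gene that the receptor induces, rose with DMOG (1.12 ± 0.27, adjusted p = 0.00716) and had 0.19 ± 0.27 with roxadustat (adjusted p = 0.744). Bcl6, a repressor gene, rose with roxadustat (0.95 ± 0.16, adjusted p = 0.00193).

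Of 15 tested targets listed for liver, 6 were higher and 1 was lower with DMOG, with a median of 0.43, against 8.26% and 11.7% of all genes. With roxadustat 2 were higher and 0 lower, with a median of 0.13, against 2.16% and 2.02% of all genes. In the fit without DMOG replicate 5, there were 8 and 1 for DMOG, against 17.3% and 18.1% of all genes. For roxadustat there were 3 and 0, against 4.12% and 4.63% of all genes. Tat, tyrosine aminotransferase, a classical hepatic target of glucocorticoids, was at 258 ± 112 FPKM with DMOG, 106 ± 32.2 FPKM with roxadustat and 89.2 ± 23.1 FPKM with PBS. It rose with DMOG (1.44 ± 0.29, adjusted p = 0.00275) and was lower with roxadustat than with DMOG (-1.21 ± 0.29, adjusted p = 0.0333). Got1, an aspartate aminotransferase gene, rose with DMOG (1.29 ± 0.23, adjusted p = 0.00137) and was also lower with roxadustat than with DMOG (-1.17 ± 0.23, adjusted p = 0.0141). Tdo2, the tryptophan dioxygenase gene, another classical target, fell to 23.4 ± 35.6 FPKM with DMOG, against 79.7 ± 13.1 FPKM with PBS (-2.63 ± 0.49, adjusted p = 0.0017), and was at 68.2 ± 16.7 FPKM with roxadustat. DMOG replicate 5 had 95.3 FPKM of Tdo2 and the other 5 DMOG libraries 5.16 to 18.8 FPKM, and without it the log2 fold change was -3.21 ± 0.25 (adjusted p = 4.28e-08). Igfbp1, an insulin-like growth factor binding protein gene that HIF also induces, rose with both compounds (1.56 ± 0.32 and 1.69 ± 0.32, adjusted p = 0.00271 and 0.0042), and Pck1, the gluconeogenic enzyme gene, rose with roxadustat (0.94 ± 0.20, adjusted p = 0.00921). Between roxadustat and DMOG this list had 1 higher (Tdo2) and 3 lower (Tat, Got1 and Ppargc1a, a coactivator gene of gluconeogenesis), against 1.86% and 1.14% of all genes. With DMOG replicate 5 left out, these counts were also 1 and 3, against 9.04% and 7.14% of all genes.

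Metal-handling genes, listed because Mt1 and Mt2 answer to metals, moved in both directions. Of 11 tested, 5 were higher and 3 lower with DMOG, with a median of 0.29, and 2 higher and 1 lower with roxadustat, with a median of 0.15. All genes had 8.26% higher and 11.7% lower with DMOG and 2.16% and 2.02% with roxadustat. In the fit without DMOG replicate 5, the counts were 6 and 3 for DMOG, against 17.3% and 18.1% of all genes. For roxadustat they were 3 and 1, against 4.12% and 4.63%. Between roxadustat and DMOG they were 3 and 3 in that fit, against 9.04% and 7.14% of all genes. With all libraries this comparison had 1 higher and 0 lower, against 1.86% and 1.14%. Slc39a14, an importer of zinc and iron, rose to 123 ± 29.2 FPKM with DMOG and 88.5 ± 12.5 FPKM with roxadustat, against 52 ± 4.2 FPKM with PBS (1.20 ± 0.14 and 0.75 ± 0.14, adjusted p = 0.000554 and 0.00483). Slc30a10, a manganese exporter gene, rose too (1.29 ± 0.17 and 1.14 ± 0.17, adjusted p = 0.000792 and 0.00108). Gclc, of glutathione synthesis, fell with both compounds (-1.10 ± 0.19 and -0.82 ± 0.19, adjusted p = 0.00114 and 0.0167), and its partner Gclm fell with DMOG (-0.96 ± 0.17, adjusted p = 0.0014). Mtf1, which encodes the zinc sensor and is named after its values were seen, had 0.08 ± 0.06 with DMOG and 0.05 ± 0.06 with roxadustat (adjusted p = 0.373 and 0.737).

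Relatives of the 8 genes were listed to see where a family member moved in another way. Of 19 tested, 1 was higher and 3 were lower with DMOG, and 2 higher and 1 lower with roxadustat, with medians of -0.01 and -0.02. The DMOG count is near the background of 8.26% higher and 11.7% lower. With roxadustat 2.16% of all genes were higher and 2.02% lower. With DMOG replicate 5 left out, there were 4 higher and 4 lower with DMOG and 2 higher and 3 lower with roxadustat, against 17.3% and 18.1%, and 4.12% and 4.63%, of all genes. Between roxadustat and DMOG there were 2 higher and 0 lower with all libraries, against 1.86% and 1.14% of all genes. Without DMOG replicate 5 there were 6 and 1, against 9.04% and 7.14%. Sgk2, a liver-expressed relative of Sgk1, fell to 1.33 ± 2.19 FPKM with DMOG, against 5.54 ± 1.26 FPKM with PBS (-2.22 ± 0.37, adjusted p = 0.00108). Sgk2 was at 5.79 FPKM in DMOG replicate 5 and at 0.176 to 0.694 FPKM in the other 5 DMOG libraries, and without replicate 5 the log2 fold change was -2.68 ± 0.16 (adjusted p = 2.54e-09). Klf6, a Krüppel-like factor gene, rose with DMOG (0.51 ± 0.13, adjusted p = 0.011). Tsc22d1, a relative of Tsc22d3, rose with roxadustat to 265 ± 42.2 FPKM, against 127 ± 16.2 FPKM with PBS (1.06 ± 0.17, adjusted p = 0.00157), and was at 106 ± 34.9 FPKM with DMOG, which was not called (adjusted p = 0.195) but was called lower without replicate 5 (adjusted p = 0.0441). Between the compounds it was higher with roxadustat than with DMOG (1.37 ± 0.17, adjusted p = 0.000453) with groups that did not overlap.

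**Figure D5:**
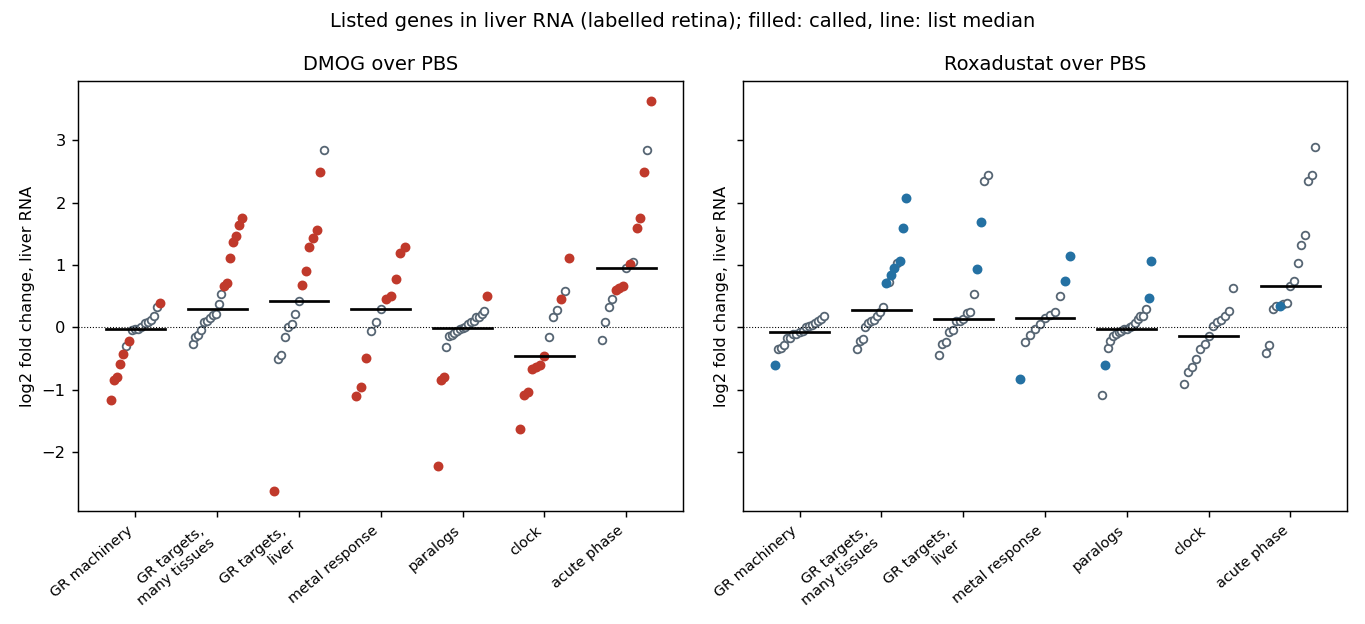
Log2 fold changes over PBS in liver RNA of the tested genes of 7 lists, with DMOG on the left and roxadustat on the right. Each circle is a gene, filled where it was called, and the line is the list median. For genes induced by glucocorticoids in many tissues 7 (DMOG) and 6 (roxadustat) filled circles lie above 0 and 0 below, while the receptor list has 6 below and 1 above with DMOG. The members, among them Fkbp5, Tsc22d3 and Klf9, which were called lower with DMOG, and Zbtb16 and Mt1, called higher, are not in these lists. Of all genes 8.26% were called higher and 11.7% lower with DMOG, and 2.16% and 2.02% with roxadustat.

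In retina RNA few of the listed genes were called. No gene of the receptor, liver target, metal or relative lists was called for DMOG or roxadustat. Of the 18 tested targets in many tissues 1 was higher with DMOG and 2 with roxadustat, against 0.37% and 1.69% of all genes. Ddit4 was at 68.7 ± 9.14 FPKM with DMOG, 91.3 ± 7.09 FPKM with roxadustat and 50.3 ± 6.25 FPKM with PBS (0.45 ± 0.09, adjusted p = 0.0195, and 0.86 ± 0.09, adjusted p = 6.58e-06), and it differed between roxadustat and DMOG as well (0.41 ± 0.09, adjusted p = 0.0202). Errfi1, an inhibitor of EGF receptor signalling, rose with roxadustat (0.24 ± 0.06, adjusted p = 0.0445). Of 12 HIF targets listed as a check on the compounds, 11 of 12 tested were higher with each compound in liver RNA. Of all genes 8.26% were higher there with DMOG and 2.16% with roxadustat. Without DMOG replicate 5 there were again 11 with each compound, against 17.3% and 4.12% of all genes. In retina RNA 1 of 11 was higher with DMOG and 7 of 11 with roxadustat, against 0.37% and 1.69% of all genes.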

How the data were processed

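RNA sequencing of mouse tissue was deposited as 2 tables of FPKM values, 18 libraries each, made by the authors with bcl2fastq 1.8.3, TopHat2 (version 2) and Cuffdiff 2.2.1 on mm9, per the submitters' processing notes, whose options are not given in the sources used here. Read counts are not in the tables, so depth is unknown. All columns were matched to libraries by name. Genes averaging at least 0.5 FPKM over a table were tested on log2(FPKM + 0.5) with limma 3.58.1 (moderated test with a mean trend, 3 groups in 1 fit, Benjamini-Hochberg adjustment over all genes tested, R 4.3.3), and the exact permutation test was two-sided. Errors of log2 fold changes are standard errors, and intervals are 95% limma intervals. Tests were run on simulated data with known changes first. The members and lists were chosen with earlier results of these data known. Beside the members, up to 4 called genes with the smallest adjusted p per list and comparison could be named, and the 2 genes with the highest Pearson r to each member. Lists held receptor machinery, targets in many tissues and in liver, metal response, relatives, clock, acute phase and HIF target genes. Others held markers of hepatocytes, erythroid cells, macrophages, lymphocytes, photoreceptors, Mueller glia, retinal pigment epithelium and lens. Promoter windows came from RefSeq on GRCm38.p6 and were not joined to mm9 coordinates. Other pseudocounts, filters, scalings, limma settings (robust with statmod 1.5.0), a replicate block, a sex term, fits of 2 groups and leaving out each library were tried; figures used Python 3.11.15 and matplotlib 3.10.9. Replicate numbers recur across groups, but the labels tie them to nothing shared.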

Additional observations from a re-analysis of the deposited data

Results flagged for a closer look

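A sample far from the rest of its group was found in 3 of 48 groups of 6 libraries, and chance marks about 1 in 20. Fkbp5 was at 29.3 FPKM in DMOG replicate 5 of liver RNA, against 11.4 to 16.6 FPKM in the other 5 DMOG libraries. In retina RNA Fkbp5 was at 11.9 FPKM in roxadustat replicate 3, against 9.44 to 10 FPKM in the others, and Tsc22d3 was at 41.9 FPKM in PBS replicate 1, against 28.5 to 32.8 FPKM. The DMOG response differed between liver RNA and retina RNA, by limma's test of the difference itself, for Fkbp5 (-0.94, adjusted p = 0.000775), Zbtb16 (0.83, adjusted p = 0.00858) and Nr3c1 (0.43, adjusted p = 0.0257), each as the liver RNA minus the retina RNA log2 fold change.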

How the results depend on the processing

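No called result changed direction. In liver RNA with DMOG, Fkbp5 (29 of 29 alternatives), Nr3c1 (29 of 29) and Zbtb16 (28 of 28) kept their calls, while Tsc22d3, Klf9 and Mt1 kept 23, 11 and 17 of 29. Zbtb16 has 28 because the filter at a mean of 5 FPKM leaves it out. Leaving out 1 library gave 3 to 7 called members for DMOG, 0 to 2 for roxadustat and 1 to 3 for roxadustat against DMOG in liver RNA, and 0 to 0, 0 to 0 and 0 to 1 in retina RNA. The share of all genes called moved as well. In the same order it was 14.3% to 35.4%, 2.75% to 8.74% and 0.83% to 16.2% in liver RNA. In retina RNA it was 0.348% to 3.05%, 1.52% to 3.5% and 0.929% to 1.91%. The counts were 2 to 6 for the difference of the DMOG response between tissues and 0 to 1 for roxadustat. The 6 came without DMOG replicate 5 of liver RNA, where 28.8% of all genes were called for the DMOG difference and 4.75% for roxadustat. The DMOG count fell to 3 without DMOG replicate 1, 3, 4 or 6 or PBS replicate 4. In those fits 14.3% to 16.2% of all genes were called, against 20% with all libraries. For roxadustat in liver RNA, 1 member was called with equal totals, 1 with a sex term, 2 with the 2 groups alone and 2 by the unadjusted exact test. Of all genes 5.99%, 4.98% and 9.71% were called with equal totals, a sex term and the 2 groups alone, against 4.19% in the main fit. No share of all genes is given for the exact test. For roxadustat against DMOG there, 0 were called with a sex term, 0 with the 2 groups alone and 2 by the exact test. Of all genes 0.616% were called with the sex term and 0.49% with the 2 groups alone. A mean of at least 5 FPKM gave 0 too, but that filter left out Zbtb16, the 1 member called, before testing. In retina RNA the exact test gave 2 for roxadustat and 2 for roxadustat against DMOG, and the 2 groups alone gave 1 for roxadustat against DMOG, where 1.97% of all genes were called. The difference of the roxadustat response gave 1 with equal totals and 1 with a sex term, against 2.15% and 2.72% of all genes. Apart from that filter, the cause of these changes was not tested. With the replicate block the counts were 6 (Klf9 lost and Mt2 gained), 0 and 1 in liver RNA, 0 in each retina RNA comparison, and 3 and 0 for the differences. Of all genes 22.5%, 4.26% and 3.13% were called with it in liver RNA, and 14.9% and 1.76% for the differences. Same-numbered libraries did not deviate together throughout (correlations of -0.33 to 0.21 between DMOG and PBS, -0.29 to 0.55 between DMOG and roxadustat and -0.27 to 0.47 between roxadustat and PBS in liver RNA, with 1, 3 and 1 of 6 closest to their own number; -0.12 to 0.32, -0.23 to 0.24 and -0.24 to 0.19 in retina RNA, with 1, 3 and 0), and no comparison had every pair over 0.1, so numbers were not taken as pairs. Over all genes, liver RNA calls without DMOG replicate 5 were 4486 against 2526 for DMOG, 1107 against 530 for roxadustat and 2048 against 379 between the compounds. With the 2 groups alone there were 1229 for roxadustat and 62 between the compounds in liver RNA, and 94 against 147 (DMOG) and 190 against 323 (roxadustat) in retina RNA. A sex term gave 78 and no filter 232 between the compounds in liver RNA. A mean of at least 5 FPKM gave 1655 for DMOG and 325 for roxadustat. For the differences between tissues it gave 976 against 1763 (DMOG) and 113 against 249 (roxadustat), where no filter gave 394. Depth is unknown, so Zbtb16, near 0.5 FPKM in retina RNA, rests on an unknown number of reads.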

Other observations

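Clock genes, some of which glucocorticoids reset, moved in both directions in liver RNA with DMOG, and of 13 tested 2 were higher and 7 lower, with a median log2 fold change of -0.46 against 0.01 over all genes, of which 8.26% were higher and 11.7% lower. Leaving out DMOG replicate 5 gave 4 and 7, against 17.3% and 18.1% of all genes. Hlf, a PAR-domain transcription factor gene, was at 2.79 ± 1.95 FPKM with DMOG and 8.74 ± 1.18 FPKM with PBS (-1.63 ± 0.22, adjusted p = 0.000792). Dbp, of the same family, changed by -1.04 ± 0.26 (adjusted p = 0.00869) and Per2 by -0.46 (adjusted p = 0.00847), while Per1 rose. With roxadustat limma called 0 of 13 (median -0.14), or 1 higher and 1 lower without DMOG replicate 5, and Hlf was higher with roxadustat than with DMOG (1.00, adjusted p = 0.025). The labels give no time of day. Acute-phase genes, which glucocorticoids and interleukin signals induce together in liver, had 8 of 15 higher and 0 lower with DMOG (median 0.95), against 8.26% and 11.7% of all genes, and 1 higher and 0 lower with roxadustat (median 0.67), against 2.16% and 2.02% of all genes. Leaving out DMOG replicate 5 gave 10 and 0 for DMOG and 4 and 1 for roxadustat, the second against 4.12% and 4.63% of all genes. Hamp, the hepcidin gene, rose with DMOG by 3.64 ± 0.85 (adjusted p = 0.0062), Socs3 by 1.02 ± 0.23 (adjusted p = 0.00546) and Steap4 by 1.60 ± 0.33 (adjusted p = 0.00323). The Hamp levels were uneven, at 4.85 FPKM in DMOG replicate 5 and 1.8 to 65.5 FPKM in the other DMOG libraries. Stat3 rose with both compounds (0.60, adjusted p = 0.000792 for DMOG and 0.35, adjusted p = 0.0273 for roxadustat). Orm1, Orm2 and Lcn2 stand in this list and in those of glucocorticoid targets. In retina RNA limma called 0 of 14 clock and 0 of 3 acute-phase genes for either compound.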
